A study of Mus musculus with 42 samples.

Results

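The Hox genes encode homeodomain transcription factors, and they are described here through every probe set of the array that was listed with 1 gene whose symbol names a member of the Hoxa, Hoxb, Hoxc or Hoxd cluster. The rule found 48 probe sets among the 34958 that were listed with 1 gene and the 45101 on the array. They stand for 33 of the 39 mouse Hox genes in RefSeq, with 16 probe sets for 9 genes of the Hoxa cluster, 11 for 9 genes of Hoxb, 11 for 7 genes of Hoxc and 10 for 8 genes of Hoxd. Where a gene had several probe sets, the one that varied most over all arrays stands for it below. The others are given beside that one for the genes called in untreated cultures.

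The cells were synovial fibroblasts, which line the joint and secrete its fluid's lubricant, grown from the joints of arthritic female BALB/c mice, either wild type or TSG-6-deficient. TSG-6 is the secreted hyaluronan-binding protein encoded by Tnfaip6. All mice had been immunized with 100 ug of cartilage proteoglycan and 2 mg of the adjuvant DDA, so no culture came from an unimmunized mouse, and the mice's ages were not stated. Cultures of up to 6 passages were grown in 10% FCS, held overnight in 0.5% FCS and then left untreated or given 1 of 5 treatments for 12 h: 5 ng/ml TNFa, 200 ng/ml LPS, 120 ug/ml TSG-6 protein, 24 ug/ml hyaluronan (HA), or TSG-6 and HA together. RNA of each culture was read on 1 array, giving 15 wild-type arrays (5 untreated and 2 for each treatment) and 27 knockout arrays (8 untreated, 3 with TSG-6 and 4 for each other treatment). The labels called these biological replicates without saying which came from separate mice, so the p-values below measure only the spread between these cultures.

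Hox genes lie in 4 clusters on different chromosomes, Hoxa on 6, Hoxb on 11, Hoxc on 15 and Hoxd on 2, and genes at the same place in different clusters form a numbered paralogue group. In the embryo they are switched on in the order in which they lie, low numbers toward the head and high numbers toward the tail, and a second round of Hoxa and Hoxd activity patterns the limbs from shoulder or hip to digits. Adult fibroblasts keep much of the Hox pattern of the body site they came from, and cultures of synovial fibroblasts from different joints are known to differ in it.

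The values were on a log2 scale on which every probe set had a median of 0 over the 42 arrays, so a value says how far a culture lay above or below the middle culture for that gene, and never whether the gene was on or off or how one gene's level compared with another's. Differences are given as knockout minus wild type with the standard error of limma's model over all 12 groups, and adjusted p is limma's with Benjamini-Hochberg adjustment over the 45037 probe sets tested, called under 0.05. The probe set for Tnfaip6 itself stood at -0.37 ± 0.16 (SD, n = 5) in untreated wild-type cultures and -0.11 ± 0.23 (SD, n = 8) in untreated knockout cultures, a difference of 0.26 with adjusted p = 0.254, so it was not lower in the cultures labelled knockout. The array does not say whether its probes lie in the disrupted stretch, and the cultures are called knockout-labelled from here on. Because each genotype came as its own set of cultures, the genotype and the mice or joints used for each cannot be told apart.

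The arrays also fell into groups that the labels do not name. Among probe sets other than those of Hox genes that split a genotype's arrays by a gap of at least 1 log2 unit, 33 of 45 split the wild-type arrays the same way, into 8 and 7, and 12 of 71 split the knockout-labelled arrays into 14 and 13. These are called set a and set b within each genotype, and each set held arrays of every condition. Set a held untreated replicates 1 to 3 and replicate 1 of each treatment in the wild type, and untreated replicates 1 to 4 and replicates 1 and 2 of each treatment in the knockout-labelled cultures. The wild-type split was the only one with arrays of every condition on both sides, while the knockout-labelled arrays had 2 such splits, of which the commoner is used. The sets were found in the values, and serve to describe the spread and as a block in an alternative fit.

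In untreated cultures the 4 clusters did not shift together. Hoxb genes were lower or not called in the knockout-labelled cultures, Hoxa and most Hoxc genes were higher or not called, and Hoxd held both the largest falls, in Hoxd8, Hoxd9 and Hoxd10, and a rise in Hoxd13, although under cyclic loess scaling Hoxd10, Hoxb3, Hoxb4 and Hoxb6 turned to small uncalled differences in the other direction. That scaling fits each array against the mean centred value. All 90 probe sets with a mean above 1 were higher in the wild type, so by construction it moves such probe sets together. A direction kept or turned under it therefore does not decide whether a gene differed. In all, 23 of the 48 probe sets were called, 10 higher and 13 lower, where 28.6% of all probe sets tested were called, 15.1% higher and 13.5% lower. Cyclic loess called 13 of the 48, 8 higher and 5 lower, and 10672 of all 45037 probe sets tested. The 23 probe sets stood for 17 genes, 7 higher and 10 lower, and the other 16 genes were not called. A fit with 1 probe set a gene called 6762 of all 18193 genes. The median difference over the members' probe sets was 0.15 for Hoxa, -0.49 for Hoxb, 0.49 for Hoxc and -0.97 for Hoxd, against 0.02 over all probe sets tested. Arrays of the genotypes did not overlap at 21 of the 48 probe sets, and at 16.8% of all.

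**Figure D1:**
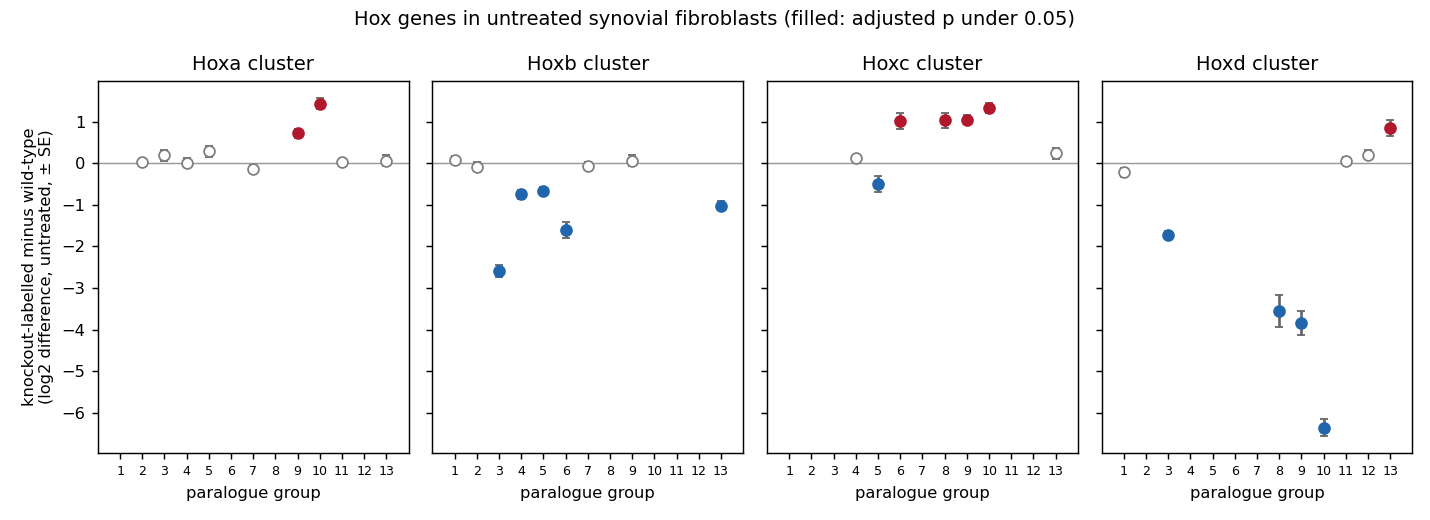
Difference between knockout-labelled and wild-type untreated cultures (log2, with its standard error; 8 and 5 arrays) for 33 Hox genes, 1 panel a cluster, against the paralogue group on the horizontal axis; filled points passed adjusted p under 0.05. Hoxd10 lay lowest at -6.35 and Hoxa10 highest at 1.43; under cyclic loess Hoxd10 (0.25), Hoxb3 (0.26), Hoxb4 (0.19) and Hoxb6 (0.17) lay just above 0.

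Along the Hoxd cluster the difference was concentrated in 3 neighbouring genes and in Hoxd3. Hoxd4, numbered between Hoxd3 and Hoxd8, had no probe set of its own. Probe sets listed with both Hoxd4 and Hoxd3 were at -2.03 and -1.15. Hoxd8, Hoxd9 and Hoxd10 act in the patterning of the lower trunk and of the limb segments, and Hoxd13, at the end of the cluster, in the digits. The 200 bases just before the start of these 4 genes are shown because they are neighbours of one cluster that did not shift alike, with CG dinucleotides, the places where mammalian DNA is methylated, in capitals. They lie on the + strand of chromosome 2 in RefSeq's GRCm38.p6, at chr2:74704415-74704614 for Hoxd8, chr2:74697563-74697762 for Hoxd9, chr2:74691691-74691890 for Hoxd10 and chr2:74668025-74668224 for Hoxd13.
Hoxd8: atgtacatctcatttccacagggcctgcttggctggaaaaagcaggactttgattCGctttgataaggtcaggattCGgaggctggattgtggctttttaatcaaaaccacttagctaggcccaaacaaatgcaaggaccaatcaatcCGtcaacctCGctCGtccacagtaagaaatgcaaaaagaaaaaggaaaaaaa
Hoxd9: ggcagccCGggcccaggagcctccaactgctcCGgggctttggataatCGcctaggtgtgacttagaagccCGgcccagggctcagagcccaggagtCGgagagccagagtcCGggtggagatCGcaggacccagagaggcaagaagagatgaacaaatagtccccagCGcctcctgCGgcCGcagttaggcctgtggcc
Hoxd10: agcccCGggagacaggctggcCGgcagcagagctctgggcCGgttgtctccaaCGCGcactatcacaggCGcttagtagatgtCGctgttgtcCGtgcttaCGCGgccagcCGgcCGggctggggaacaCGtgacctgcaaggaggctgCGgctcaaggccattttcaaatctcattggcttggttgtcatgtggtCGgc
Hoxd13: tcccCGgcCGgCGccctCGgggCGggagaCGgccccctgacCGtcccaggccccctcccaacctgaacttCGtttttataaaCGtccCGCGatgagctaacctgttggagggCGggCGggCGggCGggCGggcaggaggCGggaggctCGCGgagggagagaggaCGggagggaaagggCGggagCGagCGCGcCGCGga
These stretches held 5, 10, 15 and 26 CG dinucleotides in that order. In the full RefSeq windows of 300 bases, from 250 before the start to 50 after it, the counts were 6, 20, 22 and 37, where the median over 32851 mouse promoters was 7 and 5.58% of them held as many as Hoxd13. The count did not follow the order of the cluster, since between Hoxd10 and Hoxd13 the 2 windows of Hoxd11 held 25 and 4 and that of Hoxd12 held 13. The letters TATAAA, searched on both strands and so also as TTTATA, were in the Hoxd13 window and in 13.6% of all such windows. Methylation and binding were not measured, and the counts describe the letters only.

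Hoxd10 gave the largest difference of the 33 Hox genes in the deposited values. The 5 untreated wild-type cultures read 6.17, 6.40, 6.51, 6.14 and 6.05, and the 8 knockout-labelled ones ran from -0.73 through a median of -0.15 to 0.51. No value of one genotype came near the other. The difference was -6.35 ± 0.20, an 81.5-fold lower value with adjusted p = 5.66e-24, but under cyclic loess it was 0.25 and not called. Over all 6 conditions the 15 wild-type arrays lay between 5.02 and 6.51 and the 27 knockout-labelled arrays between -1.04 and 0.51.

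Hoxd9, a neighbour that also acts in the limb bud, showed the same order. Its wild-type values were 3.66, 3.48, 3.76, 3.23 and 3.17, and the knockout-labelled values ran from -1.04 through -0.43 to 0.34. The groups were apart, with a difference of -3.84 ± 0.29 (14.3-fold, adjusted p = 1.96e-13), and under cyclic loess it was still lower at -0.71 and called. Hoxd8, the next gene toward the head end of the cluster, read 3.02, 2.97, 2.94, 2.44 and 2.52 in the wild type and from -1.81 through -0.74 to 0.08 in the knockout-labelled cultures. Here too the groups were apart, and the difference was -3.55 ± 0.38 (11.8-fold, adjusted p = 1.51e-09), -3.47 at its other probe set and -1.66 under cyclic loess.

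Hoxd3, which acts in the neck vertebrae and hindbrain, was lower as well. It read 1.87, 1.38, 1.36, 1.62 and 1.37 in the wild type and from -0.47 through -0.17 to 0.03 in the knockout-labelled cultures. The groups did not overlap, and the difference was -1.72 ± 0.10 (3.29-fold, adjusted p = 1.09e-16); it was -0.13 and not called under cyclic loess.

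Hoxd13 was the 1 Hoxd gene that was higher in the knockout-labelled cultures. Its wild-type values of -0.24, -0.45, -0.38, -0.42 and -0.47 lay close together, and the knockout-labelled values spread from -0.02 through 0.34 to 1.13. All 8 knockout-labelled values were above the highest wild-type value, and the difference was 0.85 ± 0.19 (1.80-fold, adjusted p = 0.000619), or 1.34 under cyclic loess. Its other probe set gave 0.18 and was not called. The genes between and beside them were not called, with differences of 0.05 for Hoxd11 (adjusted p = 0.783), 0.21 for Hoxd12 (adjusted p = 0.135) and -0.22 for Hoxd1 (adjusted p = 0.138).

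In the Hoxb cluster all 7 called probe sets of 11, for 5 of 9 genes, were lower in the knockout-labelled cultures, where 13.5% of all were lower. Cyclic loess turned this direction for Hoxb3, Hoxb4 and Hoxb6. Hoxb3, a paralogue of Hoxd3, read 1.92, 2.65, 2.31, 2.74 and 2.28 in the wild type and from -0.68 through -0.13 to -0.01 in the knockout-labelled cultures. The groups were well apart, and the difference was -2.59 ± 0.15 (6.01-fold, adjusted p = 1.56e-16), -0.49 at its other probe set, and 0.26 and not called under cyclic loess.

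Hoxb6, which is active in the lateral plate from which limb buds arise, spread most within the wild type. It read 0.57, 1.07, 1.39, 1.96 and 1.82 there and from -0.54 through -0.20 to 0.01 in the knockout-labelled cultures. The 3 lower wild-type values were those of set a, and all 5 lay above every knockout-labelled value. The difference was -1.61 ± 0.20 (3.05-fold, adjusted p = 2.45e-08), and 0.17 and not called under cyclic loess.

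Hoxb13, at the tail end of the cluster and known for its part in prostate and tail, read 0.66, 0.70, 0.60, 1.17 and 1.01 in the wild type and from -0.53 through -0.23 to 0.17 in the knockout-labelled cultures. The groups did not overlap, and the difference was -1.02 ± 0.10 (2.03-fold, adjusted p = 3.17e-10), reduced to -0.17 and not called under cyclic loess.

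Hoxb4 and Hoxb5 differed less. Hoxb4, known from blood stem cells, read 0.91, 0.46, 0.55, 0.69 and 0.38 in the wild type and from -0.30 through -0.16 to 0.05 in the knockout-labelled cultures. The groups did not overlap, and the difference was -0.75 ± 0.10 (1.68-fold, adjusted p = 9.42e-08), and -0.48 at its other probe set. Cyclic loess turned the first of these to 0.19 without a call. Hoxb5, which helps to place the shoulder, read 0.79, 0.37, 0.37, 0.63 and 0.34 in the wild type and from -0.38 through -0.09 to 0.00 in the knockout-labelled cultures. Its groups were apart too, with a difference of -0.66 ± 0.10 (1.59-fold, adjusted p = 1.18e-06) that was -0.17 and not called under cyclic loess. The remaining Hoxb genes were not called, with differences of 0.08 for Hoxb1, -0.08 for Hoxb2, -0.07 for Hoxb7 and 0.06 for Hoxb9.

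**Figure D2:**
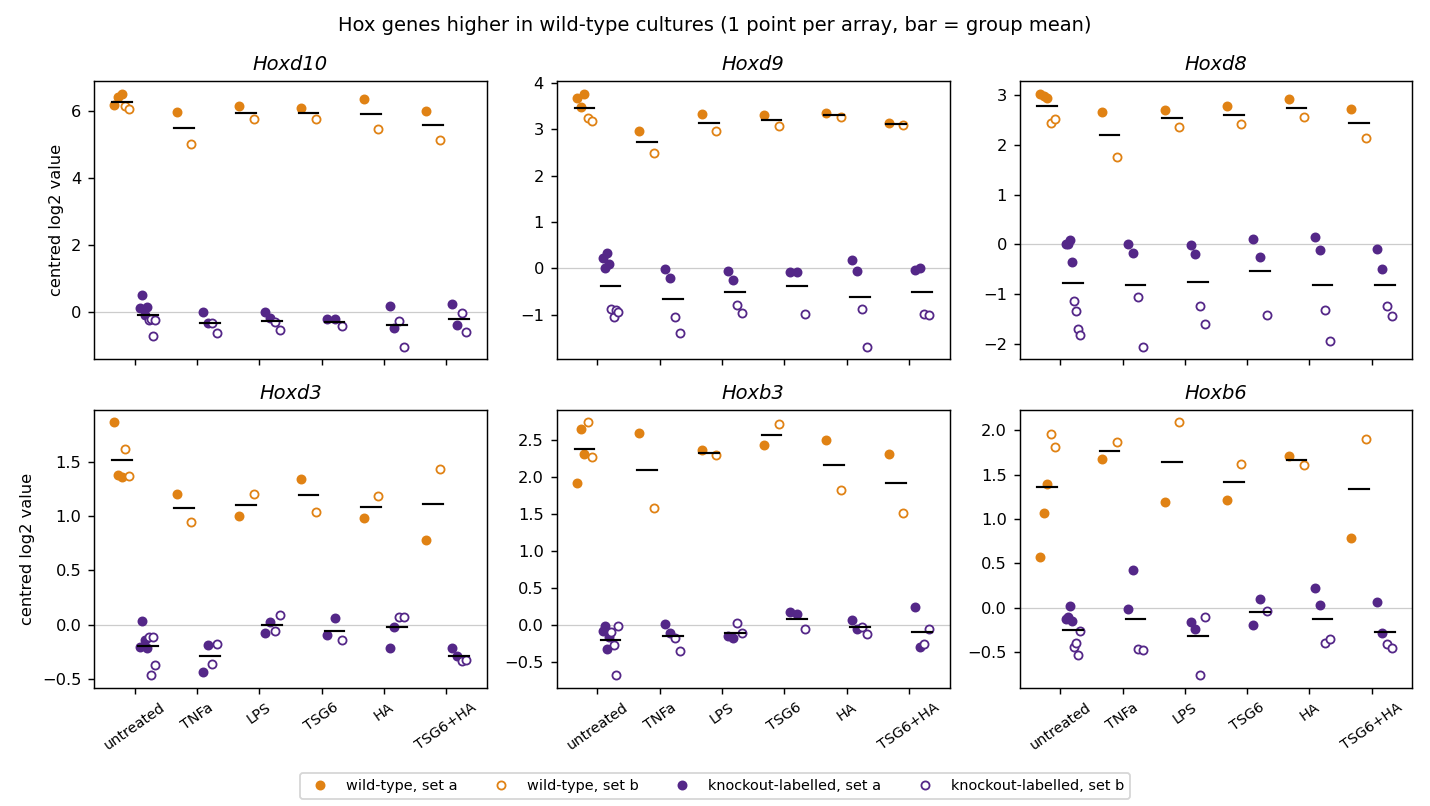
Centred log2 value on each array for Hoxd10, Hoxd9, Hoxd8, Hoxd3, Hoxb3 and Hoxb6 in the 6 conditions, wild type and knockout-labelled side by side; filled points are arrays of set a, open points arrays of set b, and each bar is a group's mean. In the deposited values all wild-type arrays lie above all knockout-labelled arrays for these genes; under cyclic loess the untreated difference turned for Hoxd10 (0.25), Hoxb3 (0.26) and Hoxb6 (0.17), and that of the 6 conditions' mean also for Hoxd3 (0.16).

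In the Hoxc cluster 6 of 11 probe sets, for 4 genes, were higher in the knockout-labelled cultures and 1 was lower. Of all probe sets, 15.1% were higher and 13.5% lower. Hoxc6, Hoxc8 and Hoxc9 pattern the chest region and Hoxc10 the lower back and hindlimb. Hoxc10 read -0.51, -0.66, -0.36, -0.72 and -0.80 in the wild type and from 0.38 through 0.67 to 1.45 in the knockout-labelled cultures. The groups were more than 0.5 apart, and the difference was 1.33 ± 0.12 (2.52-fold, adjusted p = 2.22e-11), or 0.32 and still called under cyclic loess.

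Hoxc9 read -0.60, -0.82, -0.62, -0.57 and -0.54 in the wild type and from 0.22 through 0.39 to 0.65 in the knockout-labelled cultures. The groups were apart, while over all 6 conditions the highest wild-type value, -0.23, and the lowest knockout-labelled value, -0.22, nearly met. The difference in untreated cultures was 1.04 ± 0.10 (2.06-fold, adjusted p = 2.80e-10), and 0.33 with adjusted p = 0.0544 under cyclic loess.

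Hoxc8 read -0.49, -0.34, -0.40, -0.44 and -0.23 in the wild type and from 0.17 through 0.73 to 1.19 in the knockout-labelled cultures. The groups did not overlap, and the difference was 1.03 ± 0.19 (2.04-fold, adjusted p = 5.01e-05), nearly the same under cyclic loess at 1.01. Hoxc6 read -0.59, -0.62, -0.43, -0.53 and -0.47 in the wild type and from 0.00 through 0.48 to 1.24 in the knockout-labelled cultures. Its groups were apart as well, with a difference of 1.01 ± 0.19 (2.02-fold, adjusted p = 6.24e-05) and 0.49 and 1.06 at its other probe sets.

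Hoxc5, which is active in the neck region, was the 1 called Hoxc gene that was lower. Its wild-type values were -0.13, 0.02, -0.04, 0.85 and 0.83, and the knockout-labelled values ran from -0.57 through -0.20 to 0.09. The 3 wild-type values near 0 were those of set a and overlapped the knockout-labelled range, while the pair of set b lay above it. The difference of -0.51 ± 0.19 (1.42-fold, adjusted p = 0.0422) was not called under cyclic loess or quantile normalization. Its other probe sets gave -0.23 and -0.12, neither called. Hoxc4 at 0.12 and Hoxc13 at 0.24 were not called.

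In the Hoxa cluster 3 of 16 probe sets (18.8%) were called, where 28.6% of all probe sets were called and 15.1% were higher. All 3 were higher in the knockout-labelled cultures and stood for the neighbours Hoxa9 and Hoxa10. Hoxa10, which acts in the lower back, hindlimb and uterus, read -1.33, -0.95, -0.57, -0.82 and -0.75 in the wild type and from 0.34 through 0.53 to 0.82 in the knockout-labelled cultures. The gap between the groups was wider than either group's range. The difference was 1.43 ± 0.14 (2.69-fold, adjusted p = 1.21e-10), but 0.16 and not called at its other probe set, and 0.32 with adjusted p = 0.0552 under cyclic loess.

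Hoxa9, known for its part in blood progenitors and in the trunk, read -0.21, -0.24, -0.50, -0.17 and -0.16 in the wild type and from 0.29 through 0.40 to 0.71 in the knockout-labelled cultures. The groups were apart, with a difference of 0.72 ± 0.11 (1.65-fold, adjusted p = 1.15e-06), 0.41 at its other probe set and 0.71 under cyclic loess. Of the uncalled Hoxa genes, Hoxa5 had the largest difference at 0.29 (adjusted p = 0.118), and Hoxa11 and Hoxa13, the limb genes at the end of the cluster, gave 0.02 and 0.06.

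**Figure D3:**
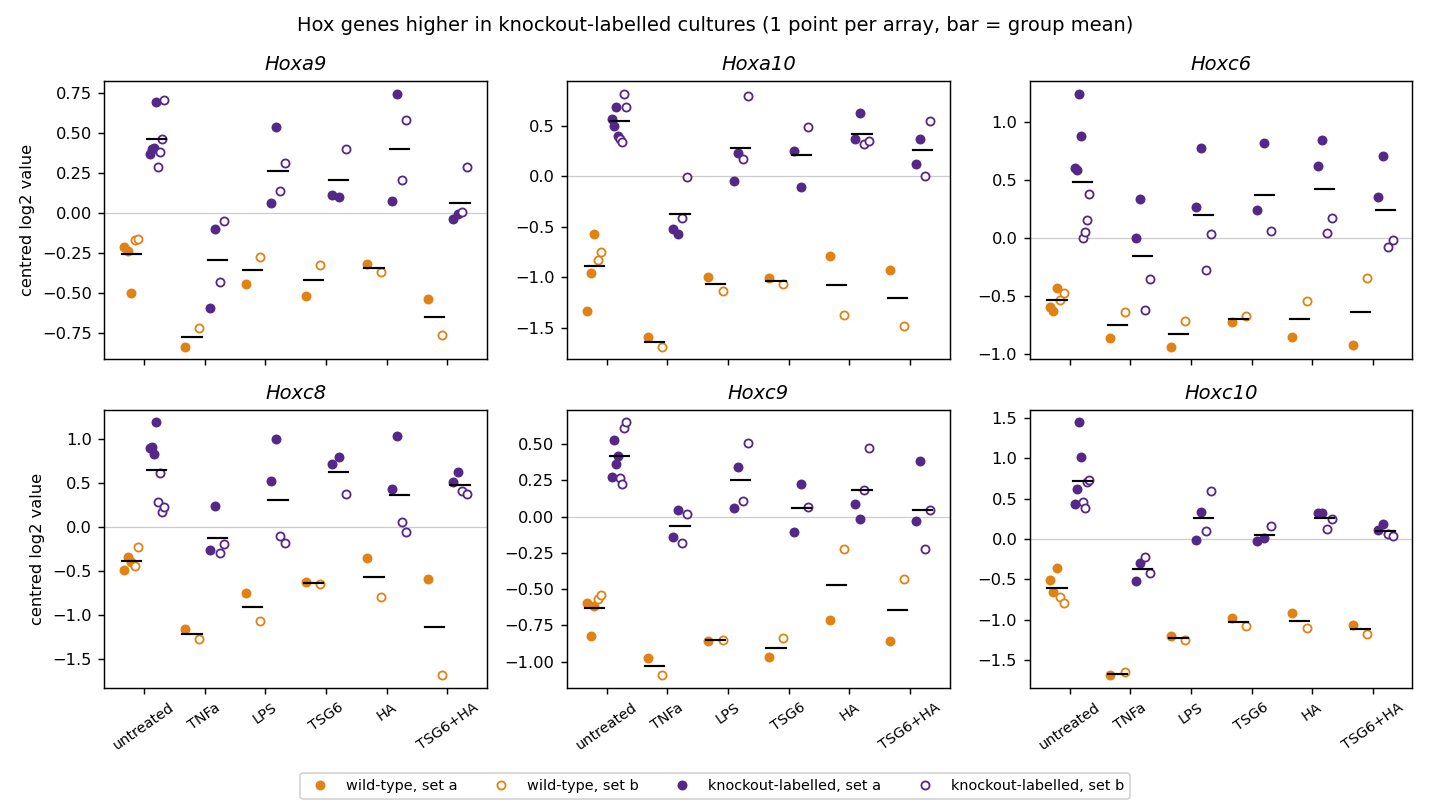
Centred log2 value on each array for Hoxa9, Hoxa10, Hoxc6, Hoxc8, Hoxc9 and Hoxc10 in the 6 conditions, wild type and knockout-labelled side by side; filled points are arrays of set a, open points arrays of set b, and each bar is a group's mean. Untreated knockout-labelled arrays lie above untreated wild-type arrays for all 6 genes in the deposited values, and Hoxc10 falls with TNFa in both genotypes. The untreated difference kept its sign under cyclic loess, which does not decide whether a gene differed.

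Sorted by position across clusters, none of the 10 genes of paralogue groups 1 to 4 was higher in the untreated knockout-labelled cultures and 3 were lower. Of the 9 genes of groups 5 to 8, 2 were higher and 4 lower, and of the 14 genes of groups 9 to 13, 5 were higher and 3 lower. Over the whole array, a fit with 1 probe set a gene called 6762 of 18193 genes. Paralogue number alone did not sort the genes, since group 9 held Hoxa9 and Hoxc9 on the higher side and Hoxd9 on the lower, and group 10 held Hoxa10 and Hoxc10 on the higher side and Hoxd10 on the lower, the last turned to 0.25 by cyclic loess. Group 13 held Hoxd13 higher, Hoxb13 lower, and Hoxa13 and Hoxc13 uncalled. In group 3, Hoxb3 and Hoxd3 were lower, of which cyclic loess turned Hoxb3, and Hoxa3 (0.19) was not called. These counts describe 33 genes and were not tested.

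The genotype comparison was repeated within the arrays of each treatment. Knockout-labelled and wild-type cultures differed at 16 of the 48 probe sets with TNFa, where 16.3% of all were called. The counts were 20 with LPS, where 16.2% were called, 21 with TSG-6 (12.6%), 19 with HA (15.8%) and 17 with TSG-6 and HA (14.5%). These 5 counts sum to 93, and under cyclic loess to 22. The 17 genes called without treatment were chosen by 1 of these 6 conditions, and the like share over all probe sets was not counted. Of the 17, 16 kept 1 direction in all 6 conditions and 13 were called in all 6. Hoxc5 was the exception in direction, and Hoxb5, called in 5 conditions, ranged widely from -0.92 to -0.07. The Hoxd10 difference lay between -6.35 and -5.77 over the 6 conditions, that of Hoxd9 between -3.91 and -3.39 and that of Hoxd8 between -3.55 and -3.01. Hoxd13, by contrast, was called in 1 condition only, with differences between 0.68 and 0.90.

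In the mean of the 6 conditions 27 of the 48 probe sets were called, 13 higher and 14 lower, for 21 genes, where 41.5% of all were called, 21.9% higher and 19.6% lower. Hoxd10 was at -6.11 ± 0.12 (adjusted p = 4.92e-31) there, turned to 0.11 by cyclic loess, and Hoxa10 at 1.37 ± 0.08. Hoxa5, which acts in the lung and chest, was among the genes called in the mean but not without treatment, at 0.33 ± 0.08 (adjusted p = 0.000797). Over all 42 arrays the genotypes did not overlap at 9 of the 48 probe sets, where 6.33% of all did not. These were 1 for Hoxc9, higher in the knockout-labelled cultures by a narrow margin, and 8 for Hoxb3, Hoxb6, Hoxb13, Hoxd3, Hoxd8 (both probe sets), Hoxd9 and Hoxd10, lower in the deposited values, a direction that cyclic loess turned in the mean of 6 conditions for Hoxb3, Hoxb13, Hoxd3 and Hoxd10.

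The culture sets moved some of these genes and not others. Within the knockout-labelled arrays, sets a and b did not overlap at 3 of the 48 probe sets, where 0.329% of all did not, and these were both probe sets of Hoxd8 and that of Hoxd9. Hoxd8 ran from -0.50 to 0.15 in set a and from -2.05 to -1.04 in set b. Hoxd9 ran from -0.25 to 0.34 in set a and from -1.68 to -0.79 in set b. So 2 neighbouring genes that were lower in the knockout-labelled cultures were lower still in 1 of their sets. Hoxd13 went the other way, with a mean of 0.09 in set a and 0.72 in set b, and Hoxc6 had means of 0.59 and -0.04. The wild-type sets did not overlap at 3 of the 48 probe sets either, where 7.09% of all did not, and these were 1 probe set each of Hoxd8, Hoxa5 and Hoxa7. With each wild-type set against each knockout-labelled set, untreated, the Hoxd10 difference lay between -6.72 and -5.92, that of Hoxd9 between -4.57 and -3.03, that of Hoxd8 between -4.47 and -2.54, and that of Hoxb6 between -2.30 and -1.10. Hoxc5 lay between -1.23 and 0.04.

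After the 12 group means were taken out, Hox genes of one cluster shared little of the remaining variation, with a median correlation of 0.11 over 121 pairs of genes and a range from -0.75 to 0.95. The median over the 407 pairs from different clusters was 0.01, from -0.78 to 0.72. Hoxd8 and Hoxd9 gave the highest value, 0.952, and Hoxd9 and Hoxd13 the lowest within a cluster, -0.752, while between clusters Hoxc6 and Hoxd13 gave -0.785. The 42 arrays behind each value include the culture sets just described, so the values are a description. The genes most like Hoxd10 in this measure, among 18192 genes, were Hacd2 at 0.881, Btrc at 0.877 and Ets1 at 0.876.

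TNFa, the inflammatory cytokine, lowered a small group of Hoxa and Hoxc genes. In knockout-labelled cultures 8 of the 48 probe sets, for 6 genes, were lower with TNFa and none higher, where 10.1% of all were called, 4.87% higher and 5.19% lower. Of the same 48, 2 were lower in the wild type and none higher, where 1.67% of all were called, 0.897% higher and 0.768% lower. No Hoxb or Hoxd probe set was called with TNFa in either genotype. Each genotype has its own untreated arrays, and these also enter the genotype comparison and the comparisons of the other treatments of that genotype.

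Hoxc10 fell most. The 4 knockout-labelled TNFa arrays read -0.52, -0.30, -0.23 and -0.43, all below the lowest untreated value of 0.38. The fall was -1.09 ± 0.13 (2.13-fold, adjusted p = 7.19e-08), and within sets a and b it was -1.29 and -0.90. Both wild-type TNFa arrays, at -1.69 and -1.66, lay below all 5 untreated ones. That difference was -1.06 ± 0.18 (adjusted p = 0.000167), but it was not called under quantile normalization (-0.61, adjusted p = 0.990) or without the arrays with 18S above 1 (-1.13, adjusted p = 0.0650). The gap between the 2 responses was -0.03 ± 0.22 and was not called.

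Hoxa10 read -0.52, -0.57, -0.42 and -0.00 with TNFa in the knockout-labelled cultures, below every untreated value, with a difference of -0.92 ± 0.15 (adjusted p = 2.20e-05). In the wild type it read -1.59 and -1.68 with TNFa, against -1.33 to -0.57 without. That difference of -0.75 ± 0.20 (adjusted p = 0.0451) lay just inside the threshold, and without any 1 of untreated replicates 2 to 5 or of the TNFa replicates it was no longer called (adjusted p from 0.0645 to 0.538).

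Hoxa9 read -0.59, -0.10, -0.43 and -0.05 with TNFa in the knockout-labelled cultures, all below the untreated range. The difference was -0.76 ± 0.11 (adjusted p = 8.42e-06) and -0.50 at its other probe set (adjusted p = 0.000129). In the wild type it was -0.52 (adjusted p = 0.099) and not called, and the difference between the genotypes' responses was -0.24 ± 0.20 and not called either. Hoxc6, Hoxc8 and Hoxc9 are the other genes called, and are named here after their values were seen. Hoxc8 read -0.26, 0.24, -0.29 and -0.20, overlapping the untreated range at 1 array, with a difference of -0.77 ± 0.21 (adjusted p = 0.0106). Hoxc9 read -0.14, 0.05, -0.19 and 0.02, all below the untreated range, with -0.48 ± 0.11 (adjusted p = 0.00275). Hoxc6 read -0.00, 0.34, -0.61 and -0.35, of which 1 array lay well inside the untreated range, with -0.64 ± 0.21 (adjusted p = 0.0408). Hoxc9 and this probe set of Hoxc6 were not called under cyclic loess (adjusted p = 0.0853 and 0.0645). The uncalled wild-type differences were -0.84 for Hoxc8, -0.40 for Hoxc9 and -0.21 for Hoxc6.

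By limma's test of the interaction, a difference between the genotypes' responses to TNFa was called at none of the 48 probe sets, where 0.475% of all were called and 1 of the 48 had an unadjusted p under 0.05. The same test called none for LPS (0.0999% of all, 2 of 48 unadjusted), TSG-6 (0.0133%, 1 of 48), HA (0.00888%, 2 of 48) or TSG-6 and HA (0.091%, 2 of 48). With the culture set as a block, 1 was called over the 5 interactions, and 5 rather than 2 were called with TNFa in the wild type. With 2 treated arrays in the wild type, simulated 1.5-fold changes were recovered in 53% of cases for TNFa in the wild type and in 71% in the knockout-labelled cultures, so small responses of the wild type could have been missed. These shares do not hold for the interactions, which were not simulated. For Hoxc10 the interaction's standard error was 0.22, against 0.18 and 0.13 for the responses of the wild type and the knockout-labelled cultures.

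**Figure D4:**
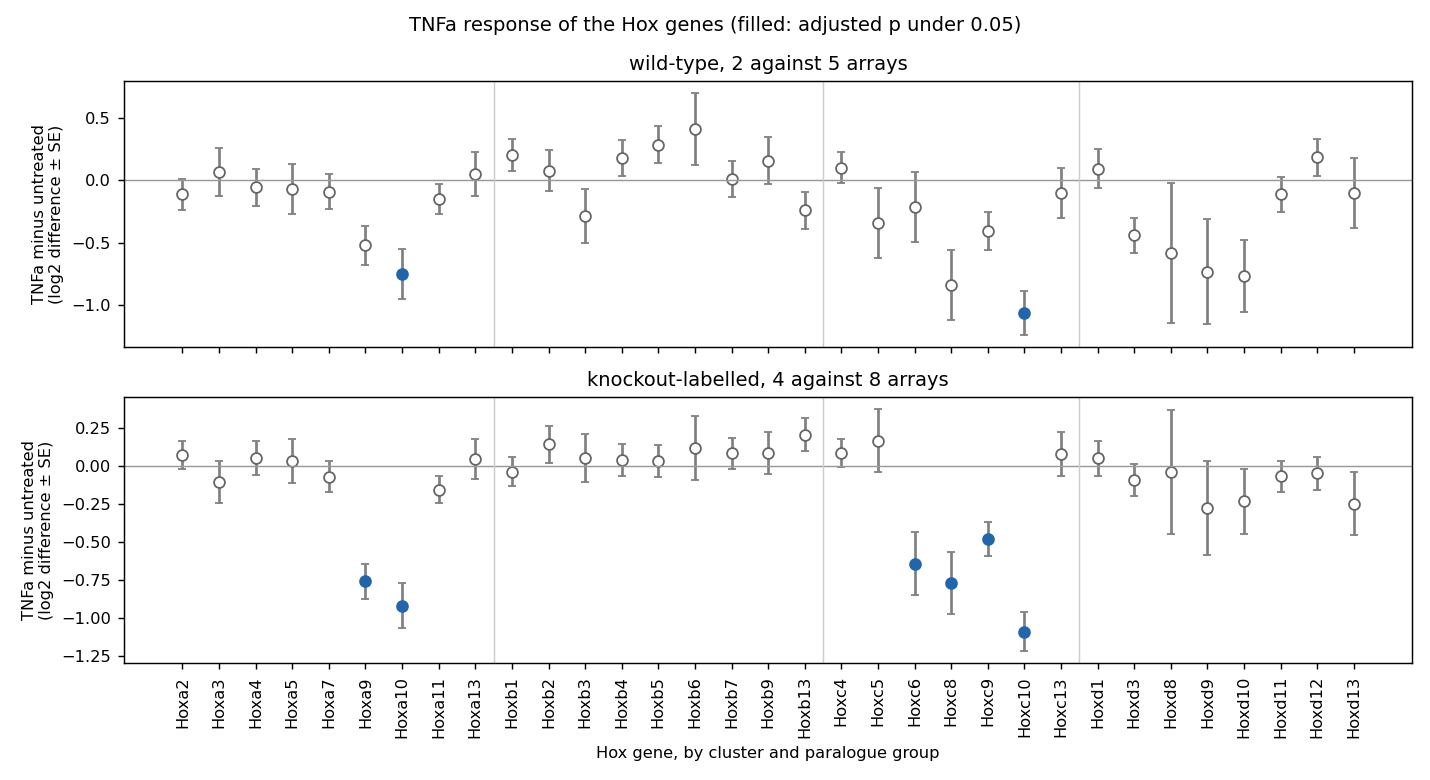
Difference between TNFa-treated and untreated cultures (log2, with its standard error) for 33 Hox genes in cluster order, wild type (2 against 5 arrays) and knockout-labelled (4 against 8 arrays) in separate panels; filled points passed adjusted p under 0.05. The called genes are Hoxc10 (-1.06) and Hoxa10 (-0.75) in the wild type, and Hoxa9, Hoxa10, Hoxc6, Hoxc8, Hoxc9 and Hoxc10 in the knockout-labelled cultures, from -1.09 to -0.48.

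The other treatments moved few Hox genes, and they share their untreated arrays with the TNFa comparison of the same genotype. With TSG-6, 1 of the 48 probe sets was called in the knockout-labelled cultures, where 3.37% of all were called and 1.76% were lower. Hoxc10 read -0.03, 0.01 and 0.16, all below the untreated range, with a difference of -0.68 ± 0.14 (adjusted p = 0.00347). It was not called when only the groups compared were fitted (adjusted p = 0.0868) or without the arrays with 18S above 1 (adjusted p = 0.129). With TSG-6 and HA, 3 of the 48 were called, all lower, where 6.72% of all were called and 4.31% were lower. More were called when the replicate number was a block, as given further below. Hoxc10 read 0.11, 0.19, 0.07 and 0.04 there, below the untreated range, with -0.62 ± 0.13 (adjusted p = 0.00139), a call also lost without the arrays with 18S above 1 (adjusted p = 0.0906). Hoxa9 read -0.04, -0.00, 0.00 and 0.29, with -0.40 ± 0.11 (adjusted p = 0.0258), all below the untreated range, the highest only just. Hoxc9 read -0.03, 0.38, -0.22 and 0.04, with 1 array inside the untreated range and a difference of -0.37 ± 0.11 (adjusted p = 0.0356). Both last calls were lost when 1 of several single arrays was left out, and the count then fell to 1 without untreated replicate 8 or TSG-6 and HA replicate 1 or 3. Hoxc10 was also below its untreated mean without a call with LPS (-0.47, adjusted p = 0.0668) and with HA (-0.47, adjusted p = 0.147) in the knockout-labelled cultures, and with LPS in the wild type (-0.62, adjusted p = 0.119).

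By limma's test no Hox probe set was called with LPS in the wild type (0.726% of all called, 2 of 48 at an unadjusted p under 0.05) or in the knockout-labelled cultures (1.05%, 1 of 48). None was called with HA in the wild type (0.0666%, 2 of 48) or in the knockout-labelled cultures (0.262%, 3 of 48). None was called in the wild type with TSG-6 (0.206%, 3 of 48) or with TSG-6 and HA (0.451%, 8 of 48). In the knockout-labelled cultures, a few were called with LPS and with HA when the replicate number was a block, as given further below. The count of 0 changed without 1 array for LPS in the knockout-labelled cultures, to 1 without untreated replicate 1, 5 or 6 or LPS replicate 4, and for TSG-6 and HA in the wild type, to 1 without TSG-6 and HA replicate 1.

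The limb bud is also patterned by factors outside the Hox family. This and the following gene lists count 1 probe set a gene, the one that varied most, while the shares beside them count all probe sets. A fit with 1 probe set a gene called 6762 of 18193 genes in untreated cultures. Of 24 such genes measured, 13 were higher and 2 lower in untreated knockout-labelled cultures, with a median difference of 0.49, where 15.1% of all probe sets were higher and 13.5% lower. Cyclic loess gave 10 higher and 1 lower, with a median of 0.22. Tbx4, which marks the hindlimb, ran from -1.80 through -1.36 to -1.19 in the wild type and from 0.01 through 0.24 to 0.82 in the knockout-labelled cultures. The groups were apart by more than 1 log2 unit, with a difference of 1.78 ± 0.14 (adjusted p = 4.45e-13) that cyclic loess turned to -0.09 without a call. Tbx18, a factor of the limb's and somite's front part, ran from -1.60 through -1.43 to -1.12 and from 0.22 through 0.46 to 0.76, with 1.86 ± 0.14 (adjusted p = 5.59e-13) and 0.34 under cyclic loess. Hand2, which sets the rear side of the limb bud, ran from 1.24 through 1.27 to 1.88 and from -0.61 through -0.18 to -0.05. It was lower by -1.75 ± 0.14 (adjusted p = 1.57e-12), and cyclic loess turned it to 0.02 without a call. With TNFa 8 of the 24 were lower and none higher in the knockout-labelled cultures, with Irx5 at -1.26, where 5.19% of all probe sets were lower, and quantile normalization gave 10 lower and 1 higher. In wild-type cultures 4 were lower with TNFa, where 0.768% of all were, and none under quantile normalization.

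**Figure D5:**
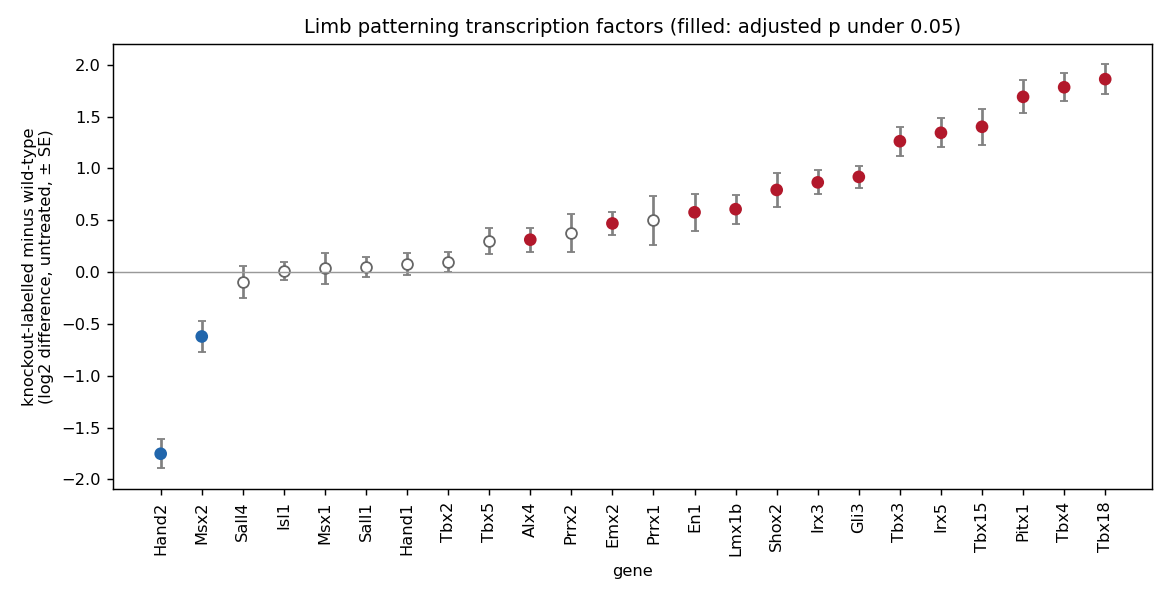
Difference between knockout-labelled and wild-type untreated cultures (log2, with its standard error; 8 and 5 arrays) for 24 limb patterning factors other than Hox genes, sorted by size; filled points passed adjusted p under 0.05. Of these, 13 lie on the higher side with a call and 2 on the lower; cyclic loess turned Tbx4 (-0.09) and Hand2 (0.02).

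Hox proteins bind DNA together with TALE homeodomain partners, of which 2 of 8 were higher and 1 lower in untreated knockout-labelled cultures, where 15.1% of all probe sets were higher and 13.5% lower. Meis1 was higher by 0.81 ± 0.14 (adjusted p = 7.68e-06) and Meis3 by 0.60 ± 0.11 (adjusted p = 6.42e-05), while Meis2 differed by -0.87 ± 0.17 (adjusted p = 8.36e-05), the last not called under cyclic loess. Among 29 genes of the Polycomb and Trithorax groups, which keep Hox genes off or on, 7 were higher and 5 lower, beside the same 15.1% and 13.5% of all. At 1 probe set a gene, as these lists count, 6762 of 18193 genes were called in either direction. Examples are Cbx7, a Polycomb reader of histone marks, at 0.95 ± 0.11 (adjusted p = 1.48e-08), Phf1, a partner of the Polycomb methylase, at 1.06 ± 0.12 (adjusted p = 3.96e-09), and Phc2 at -0.73 ± 0.11 (adjusted p = 1.47e-06).

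Of 10 genes that switch Hox genes on in the embryo or set retinoic acid, 2 were higher and 1 lower, and 28.6% of all probe sets were called in that comparison. Cyp26b1, which breaks down retinoic acid, was higher by 1.35 ± 0.28 (adjusted p = 0.00021). Rarb, a retinoic acid receptor, was at -1.12 ± 0.12 (adjusted p = 3.46e-09), but at 0.00 and not called under cyclic loess. Of 22 genes that flank the Hox clusters, 5 were higher and 4 lower, beside the same 28.6% of all. Both lists count 1 probe set a gene, and a fit of that kind called 6762 of 18193 genes. Chn1, a gene near the Hoxd cluster, was at -1.57 ± 0.17 (adjusted p = 1.50e-09), which cyclic loess turned to 0.35, and Calcoco1, near the Hoxc cluster, at 0.85 ± 0.16 (adjusted p = 6.11e-05). Tnfaip6 itself lies on chromosome 2, as the Hoxd cluster does, and the DNA of the mice was not examined here.

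Markers of some other cells moved with the genotype beside the Hox genes, and those of others gave few or no calls. The markers count 1 probe set a gene, and a fit of that kind called 6762 of 18193 genes. Of 9 leukocyte markers 2 were lower, as were 2 of 6 skeletal muscle and 1 of 4 keratinocyte markers, with none higher. Of 4 adipocyte markers 1 was higher and 1 lower. Of 2 Schwann cell markers 1 was higher, but none under cyclic loess. None of 6 pericyte and smooth muscle markers was called. All 10 endothelial markers measured were lower in untreated knockout-labelled cultures, where 13.5% of all probe sets were lower. The endothelial markers' median difference was -4.65, though under cyclic loess 5 of 10 were called lower and Kdr and Tek changed sign. Their mean ran from 3.20 to 3.95 over the wild-type arrays and from -1.42 to 0.25 over the knockout-labelled ones, and it was lower in knockout-labelled set b (-1.42 to -1.18) than in set a (-0.49 to 0.25), the same order as for Hoxd8 and Hoxd9. Of 6 chondrocyte markers 4 were higher, where 15.1% of all probe sets were, with a median difference of 1.37. Under cyclic loess 1 was higher and the median was 0.13. The chondrocyte markers' mean ran from -1.67 to -1.03 in the wild type and from -0.17 to 0.67 in the knockout-labelled cultures. Of 11 fibroblast markers 5 were higher and 2 lower, where 15.1% of all probe sets were higher and 13.5% lower. Their median difference was 0.16, and cyclic loess gave 3 higher and 1 lower with a median of 0.17. Prg4, the lubricin gene of synovial lining cells, was on the higher side at 4.41. Centred values do not show whether a marker was at or near 0. The part of these cells in the Hox differences was not tested, and in bulk cultures fewer cells of a kind and less RNA per cell cannot be told apart. The 18S probe set, a sign of RNA composition, was above 1 on 15 arrays, 5 wild-type and 10 knockout-labelled. Among wild-type arrays Hoxd10 ran from 5.02 to 6.05 on those 5 and from 5.75 to 6.51 on the others. Without those 15 arrays 11 Hox probe sets were higher and 12 lower in untreated cultures, and 11698 of all 45037 probe sets tested were called.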

How the data were processed

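RNA of 42 cultures of synovial fibroblasts was read on Affymetrix arrays. The authors deposited 1 table of log2 values, for which the submitters' processing notes name RMA without a version. Every probe set of the 45101 was centred, its median over the arrays being 0 within 1e-05. No source used here states the log base, which was taken as 2 from the largest range, 9.81. Medians of single arrays lay between -0.02 and 0.03. Precision is limited by how many arrays each group has.

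Gene names came from the platform annotation, which gave 1 gene for 34958 probe sets, several for 932 and none for 9211; 34754 were brought up to date by gene number. After 64 control probe sets were left out, 45037 were fitted with limma 3.58.1 (R 4.3.3): 12 group means over all 42 arrays, 30 residual degrees of freedom, moderated tests, and Benjamini-Hochberg adjustment within each comparison, called under 0.05. No scaling was added. The comparisons were knockout-labelled against wild type in each of 6 conditions and in their mean, each treatment against untreated within a genotype, and the interaction of both. The text gives statistics for the Hox genes called in untreated cultures or in the mean of 6 conditions (up to 8 largest each way), for up to 3 lowest adjusted p of each treatment, for every Hox gene by position and for Tnfaip6. From the other lists it names some members as examples. Irx5, Kdr, Tek and Hoxa11os were named after their values were seen, as were Hoxc6, Hoxc8 and Hoxc9 with TNFa. Replicate numbers were not taken as pairs. The fit was tested on simulated data, where 97% of 2-fold and 76% of 1.5-fold changes were recovered for untreated cultures.

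Alternatives were cyclic loess, array medians subtracted, 1 probe set a gene, probe sets listed with 1 gene only, a filter on spread, robust variances, only the groups compared, replicate or culture set as a block, arrays with 18S up to 1 only, each array left out, and, chosen after seeing the data, quantile normalization. The members and the gene lists were chosen with earlier results of these data known. Sequences are RefSeq's, for the 19 of 33 genes matched in its promoter table.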

Additional observations from a re-analysis of the deposited data

Results flagged for a closer look

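Of 96 groups of 4 to 10 arrays examined for the named Hox genes, 4 held 1 value far from the others, where chance gives about 1 in 20. In untreated wild-type cultures, Hoxc9 was lowest in replicate 2 at -0.82, and the genotype difference without that array was 1.00. Hoxa9 was lowest in wild-type untreated replicate 3 at -0.50, and the difference without it was 0.66. In knockout-labelled cultures with TSG-6 and HA, Hoxa9 was highest in replicate 4 at 0.29, and the change without it was -0.48. Hoxb3 was lowest in knockout-labelled untreated replicate 7 at -0.68, a value that lies farther from the wild type than the other 7.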

How the results depend on the processing

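For 40 results on single Hox genes, 1404 alternative fits were made. Of these, 1359 kept the direction and the side of the threshold, 36 kept the direction and lost the call, and 9 changed direction, all under cyclic loess. These were Hoxd10 (0.25), Hoxb3 (0.26), Hoxb4 (0.19) and Hoxb6 (0.17) in untreated cultures and Hoxd10 (0.11), Hoxb3 (0.35), Hoxd3 (0.16), Hoxb4 (0.13) and Hoxb13 (0.0205) in the mean of 6 conditions. Cyclic loess fits each array's values against the mean centred value. All 90 probe sets whose mean was above 1 were higher in the wild type, so by construction it moves such probe sets together. Whether a gene differed is therefore not decided by cyclic loess. It called 13 Hox probe sets and 10672 of all 45037 in untreated cultures. Its Hox calls numbered 22 over the treated conditions against 93, and 1 with TNFa in the wild type. Quantile normalization called 0 with TNFa in the wild type and 1 with LPS in the knockout-labelled cultures.

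Replicate numbers were not taken as pairs: the labels name nothing shared by a number, and the correlation of same-numbered arrays' deviations was over 0.1 in 24 of 30 wild-type pairs and 33 of 55 knockout pairs, not in every pair. It was higher than for arrays of different number, with medians of 0.41 against -0.34 in the wild type and 0.23 against -0.06 in the knockout. With the replicate block (consensus correlation 0.151), 2 Hox probe sets were called with LPS, 2 with TSG-6, 2 with HA and 8 with TSG-6 and HA in the knockout-labelled cultures. With the culture set as a block, 5 were called with TNFa in the wild type, 1 with LPS in the knockout-labelled cultures and 1 in the interactions. The filter on spread called 1 with LPS in the knockout-labelled cultures, and a fit of only the groups compared called 0 with TSG-6. Without the arrays with 18S above 1, 0 were called with TNFa in the wild type, 0 with TSG-6 and 1 with TSG-6 and HA in the knockout-labelled cultures; Hoxc10 then had adjusted p of 0.0650, 0.129 and 0.0906. With each array left out in turn, the counts ran from 22 to 24 in untreated cultures, 26 to 29 in the mean of 6 conditions and 87 to 95 over the treated conditions. In the wild type they ran from 1 to 2 with TNFa and 0 to 1 with TSG-6 and HA, and in the knockout-labelled cultures from 6 to 8 with TNFa, 0 to 1 with LPS and 1 to 3 with TSG-6 and HA. A treated group of 2 arrays then has 1, whose spread is taken from the remaining groups. The causes of these changes were not tested.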

Other observations

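Some transcripts of the Hox clusters were measured by probe sets outside the set described. A probe set listed with both Hoxd4 and Hoxd3 was at -2.03 ± 0.13 in untreated knockout-labelled against wild-type cultures (limma, adjusted p = 4.76e-15), and a second at -1.15 ± 0.16 (adjusted p = 4.37e-07). A probe set listed with Hoxb8 and Hoxb7 was at -1.94 ± 0.28 (adjusted p = 7.69e-07), where Hoxb7's own probe set was at -0.07 and not called. Which of the genes such a probe set reads cannot be told from the values.

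The antisense transcripts did not shift alike. Hoxd3os1, antisense to Hoxd3, was at -3.43 ± 0.40 (adjusted p = 7.28e-09) and -0.37 ± 0.12 (adjusted p = 0.0180) at its probe sets. Hoxb5os, antisense to Hoxb5, was at 0.47 ± 0.14 (adjusted p = 0.00717) where Hoxb5 was at -0.66. Hoxa11os was at 0.10 and 0.05, neither called, and one of its probe sets fell with TNFa in the knockout-labelled cultures by 0.47 ± 0.09 on the log2 scale (adjusted p = 0.000179).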
